A study of Sus scrofa with 28 samples.

Results

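The chemokines and chemokine receptors of the pig heart are described here, as 38 of the 17603 genes counted in the infarct and remote zones of pigs after a myocardial infarction. A gene belonged to the set if the count tables named it CCL, CXCL, CX3C, XCL, XCR, CCR, CXCR or ACKR with a number. The 38 genes were 11 CC ligands, 7 CXC ligands, 1 XC ligand, 9 CC receptors, 4 CXC receptors, 1 CX3C receptor, 1 XC receptor and 4 atypical receptors. Genes of these families that the tables do not name by this pattern were not analysed here.

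Landrace pigs of 3 months, male and female, had a balloon inflated in the left anterior descending coronary artery for 60 min and were reperfused. All animals, controls included, thus carried the injury. At reperfusion they received human recombinant Agrin (rhAgrin, labelled Agrin) at 33 µg per kg in saline, or saline alone (labelled PBS). Hearts were collected on day 3 (3 saline-treated and 4 rhAgrin-treated pigs) or day 28 (3 saline-treated and 4 rhAgrin-treated pigs), and polyA RNA of the infarct zone and of the remote zone of each heart was sequenced, giving 28 libraries from 14 animals. No uninjured heart was part of the comparison: the remote zone, muscle away from the infarct in the same heart, was the reference.

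Chemokines are small secreted proteins that hold on to the matrix and guide leukocytes along their gradient. Their receptors are coupled to G proteins on the surface of the leukocyte, and each cell type carries its own combination: CCR2 on classical monocytes, CXCR3 on activated T cells, CCR7 on cells that go to the lymph node, CXCR4 on many leukocytes and progenitors. The atypical receptors bind chemokines without that signal and clear, store or carry them. In the infarcted heart the CXC ligands that carry the ELR motif are known for calling neutrophils and CCL2 for calling monocytes. These roles are known mainly from human and mouse.

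Values are normalised CPM, that is counts scaled to a common library size with TMM factors over all 28 libraries, and those of 1 group are given in the order of animals 571, 573 and 575 (day 3, saline), 570, 572, 576 and 577 (day 3, rhAgrin), 523, 536 and 547 (day 28, saline) and 519, 522, 544 and 548 (day 28, rhAgrin). Fold changes are log2 values with their standard error, from edgeR's quasi-likelihood test with the animal as a block. A gene was called where the Benjamini-Hochberg adjusted p over all genes of the fit was under 0.05, the absolute log2 fold change was at least 1 and the highest count in the libraries compared was above 30, which are the thresholds the study used. Of the 38 genes, 37 had counts enough to be tested, CCR8 being the exception, and 31 had a mean of at least 1 CPM in some group.

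Libraries held 15.38 to 34.77 M counts. Markers of cardiomyocytes were present in every library and lower in the infarct zone on day 3. The summed level of 7 markers was 2277 to 16118 CPM in saline-treated infarct zones and 62290 to 70155 in the paired remote zones. All 7 were called lower in each treatment. Of 8 monocyte and macrophage markers 7 were called higher in saline-treated and 8 in rhAgrin-treated pigs, with summed levels of 1244 to 2066 and 1093 to 1702 CPM against 231 to 267 and 75.1 to 250 CPM. The summed level of 5 neutrophil markers was 59.7 to 100.5 CPM (saline) and 52.2 to 69.6 CPM (rhAgrin) in the infarct zone and 1.2 to 5.10 CPM in all day 3 remote zones, where MPO was at 0 in every saline-treated library, and 3 of 4 tested were called higher in each treatment. Of 7 fibroblast markers 5 were called higher in each treatment. Of the other marker lists on day 3, given for saline-treated and then rhAgrin-treated pigs, 2 and 2 of 5 B and plasma cell markers were called higher and 0 lower, 3 and 2 of 5 dendritic cell markers higher and 1 and 0 lower, and 1 and 2 of 4 mast cell markers higher and 0 lower. Pericyte and smooth muscle markers had 1 and 1 of 6 higher and 2 and 2 lower, erythroid and platelet markers 1 and 1 of 5 higher and 0 and 2 lower, and adipocyte markers 0 and 1 of 3 higher and 0 lower. Of 7 endothelial markers 0 were called higher and 1 and 0 lower, and of 4 lymphatic endothelial markers 0 higher and 1 and 1 lower. In bulk tissue, fewer cells of a type and less RNA per cell cannot be told apart. In 1 saline-treated pig of day 3, animal 573, the zones did not match in Y-linked genes, whereas they matched in 13 of 14 animals. KDM5D and ZFY had 173 and 328 counts in its infarct library and 0 in its remote library. The libraries labelled 573 may thus not be of 1 animal. Statements on all 7 animals of day 3 pair them as labelled, and day 3 results for saline are also given without animal 573. Mitochondrial transcripts took 5.78 to 10.56% of counts in day 3 infarct zones and 29.13 to 34.07% in day 3 remote zones. The part of these differences in the chemokine results was not tested.

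Many of the 38 genes lie in clusters. CXCL8 and CXCL2 lie near each other on chromosome 8, and further on CXCL9, CXCL10 and CXCL11. Chromosome 12 carries CCL4, CCL3L1, CCL14 and CCL5, and further on CCL8, CCL11 and CCL2. CX3CR1, CCR9, CXCR6, XCR1, CCR1 and CCR2 are among those on chromosome 13. In the RefSeq annotation of the pig genome (Sscrofa11.1), XCR1 (chromosome 13, 29150376 to 29233802) overlaps CCR1 (29227218 to 29233862) on the same strand, so reads of these genes may not be told apart and XCR1 is uncertain. Only uniquely mapped reads were counted, so a gene with near copies in the genome may be undercounted. Whether this holds for CCL3L1 or CCL4 was not tested. The gene that the tables name CCR2 carries an identifier that a separate name table gives as CCR3, which stays a limit on its name.

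The promoters of 3 ligands are shown because, in rhAgrin-treated pigs on day 3, CXCL2 rose and CXCL9 and CXCL10, of the same chromosome, fell. Each is the 250 bases before the RefSeq start in Sscrofa11.1, read 5′ to 3′ along the gene. Capitals mark matches on either strand to the NF-kB motif, to the interferon-stimulated response element (GAAA, 2 bases of any kind, GAAA) or to TATAAA. No match overlapped one of another kind.
CXCL9, chr8:71670237-71670486, minus strand: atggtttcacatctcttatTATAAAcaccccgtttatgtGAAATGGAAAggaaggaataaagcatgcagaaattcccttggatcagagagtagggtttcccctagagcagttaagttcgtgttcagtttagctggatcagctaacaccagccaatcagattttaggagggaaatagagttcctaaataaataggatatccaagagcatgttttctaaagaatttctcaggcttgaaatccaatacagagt
CXCL10, chr8:71695949-71696198, minus strand: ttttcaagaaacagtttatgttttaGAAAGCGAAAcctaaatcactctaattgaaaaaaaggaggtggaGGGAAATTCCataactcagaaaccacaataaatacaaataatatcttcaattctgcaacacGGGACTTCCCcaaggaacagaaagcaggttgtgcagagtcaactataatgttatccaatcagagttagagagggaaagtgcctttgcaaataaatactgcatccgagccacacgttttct
CXCL2, chr8:70157003-70157252, plus strand: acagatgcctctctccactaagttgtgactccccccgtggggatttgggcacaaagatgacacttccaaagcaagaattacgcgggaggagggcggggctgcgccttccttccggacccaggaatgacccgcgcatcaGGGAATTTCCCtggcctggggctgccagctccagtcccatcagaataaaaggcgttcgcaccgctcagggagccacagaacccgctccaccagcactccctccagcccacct

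CXCL9 and CXCL10, ligands of CXCR3 that interferon gamma induces, both held the interferon element, its first base 211 and 225 bases before the start. CXCL10 also held the NF-kB motif at 181 and 120 bases before the start. CXCL2, a neutrophil attractant, held overlapping NF-kB matches 112 bases before the start on the plus strand and 111 bases before it on the minus strand. It held no interferon element. Over windows that run on to 50 bases after the start, the NF-kB motif was found in 6 of the 38 genes, CXCL10, CXCL2, CCL22, CXCR5 and ACKR3 among them, and in 6.94% of 20653 promoters of protein-coding genes, the interferon element in 3 (CXCL9, CXCL10 and CCL19) against 3.72%, and TATAAA in 9 against 11.64%. A match is a run of letters and was not tested for binding.

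On day 3 most chemokines and receptors that were called were higher in the infarct zone. In saline-treated pigs 23 of 37 were called, 18 higher and 5 lower, where 34.7% of all 15409 genes were called, 18.2% higher and 16.5% lower. In rhAgrin-treated pigs 22 of 37 were called, 18 higher and 4 lower, against 34.9% of all genes, 19.3% higher and 15.5% lower. Of these, 17 were called higher and 4 lower in both treatments. The infarct and remote zones of saline-treated pigs did not overlap for 24 of the 37 genes, where 64.8% of all genes did not overlap. In rhAgrin-treated pigs 20 of 37 did not, against 59.0% of all genes. Without animal 573 the count in saline-treated pigs was 25, of which 21 were among the 23: CCL26 and CXCL9 were lost and ACKR1, ACKR2, CCL4 and CXCL2 gained. The log2 fold changes of those 21 moved by a median of 0.13 and by 0.95 at most.

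Of 11 CC ligands 6 were called higher, 2 lower and 3 were not called in each treatment, with a median log2 fold change of 3.13 in saline-treated and 2.64 in rhAgrin-treated pigs, where the median of all genes was 0.04 and 0.06. CCL2, which attracts monocytes through CCR2, stood at 131, 63.5 and 199 CPM in the saline-treated infarct zones and at 2.66, 1.40 and 2.72 in the paired remote zones. In rhAgrin-treated pigs it stood at 49.3, 48.6, 208 and 248 CPM against 2.71, 2.15, 3.44 and 5.39. Every infarct zone exceeded every remote zone, and the log2 fold change of CCL2 was 5.82 ± 0.49 (SE; adjusted p = 2.82e-07 by edgeR) in saline-treated and 5.09 ± 0.41 (adjusted p = 1.06e-07) in rhAgrin-treated pigs.

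CCL3L1, a pig ligand of the CCL3 type that acts on CCR1, stood at 1.67, 3.39 and 16.6 CPM in saline-treated infarct zones and at 0.113, 0 and 0.134 in the remote zones. With rhAgrin it stood at 0.501, 1.40, 15.4 and 11 CPM against 0, 0, 0.115 and 0.0922. The infarct libraries of CCL3L1 thus ranged widely within a treatment while the remote ones were at or near 0. Its log2 fold change was 6.26 ± 0.58 (edgeR adjusted p = 5.20e-07) in saline-treated and 6.96 ± 0.55 (adjusted p = 7.05e-08) in rhAgrin-treated pigs. CCL4, its neighbour in the cluster, had a smaller difference, 0.87 ± 0.34 and 0.97 ± 0.27 on the log2 scale, below the fold threshold in both treatments. Without animal 573 CCL4 was called, at 1.14.

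CCL5, which T cells and platelets release, stood at 32.9, 44.0 and 87.4 CPM against 2.60, 5.29 and 12.7 in saline-treated pigs. In rhAgrin-treated pigs it stood at 25, 37.8, 68.3 and 54.1 CPM against 5.85, 4.15, 5.90 and 14.9. CCL5 was higher in the infarct zone of all 7 animals, by 3.13 ± 0.32 and 2.64 ± 0.27 on the log2 scale. CCL8, a further ligand of CCR2, stood at 1.02, 1.56 and 12.1 CPM against 0.0566, 0.311 and 0.758 in saline-treated pigs. In rhAgrin-treated pigs CCL8 stood at 0.847, 0.644, 4.59 and 5.89 CPM against 0.160, 0.100, 0.286 and 0.184. It rose by 3.59 ± 0.43 and 3.86 ± 0.40 on the log2 scale, from a low level.

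CCL11 (eotaxin), which attracts eosinophils, was counted 86 times over the 3 saline-treated infarct zones (1.05, 0.825 and 1.21 CPM) and 0 times in the remote zones. It was at least 18.4-fold higher, taking 3 counts over the remote group as the floor. In rhAgrin-treated pigs CCL11 stood at 2.85, 0.492, 0.821 and 1.51 CPM against 0.0532, 0.05, 0 and 0.0461. That is 155 against 3 counts, a ratio of 36.7 with a 95% interval of 12.3 to 179.9 that covers counting error only. CCL22, a ligand of CCR4, had 37 counts against 2 (ratio 11.9, 3.06 to 101.7) in saline-treated pigs. Both remote counts of CCL22 were from animal 573, and the other 2 animals had 16 and 16 counts in the infarct zone and 0 in the remote zone. In rhAgrin-treated pigs CCL22 had 37 against 0, at least 8.76-fold higher. Its highest count was 16, under the count threshold, and it was not called. CCL21, which lymphatic vessels display to cells with CCR7, was among the most abundant CC ligands in both zones. It stood at 52.0 ± 6.48 CPM (SD, n = 3) against 16.5 ± 5.81 in saline-treated pigs, a log2 fold change of 1.70 ± 0.27. In rhAgrin-treated pigs CCL21 stood at 35.6 ± 6.77 CPM (SD, n = 4) against 16.0 ± 2.93, a log2 fold change of 1.15 ± 0.23. CCL19, the other ligand of CCR7, was not called, at 0.88 ± 0.44 and 0.89 ± 0.39.

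CCL14 and CCL26 went the other way. CCL14, a plasma chemokine that acts on CCR1 once it is cleaved, stood at 6.73, 7.81 and 3.63 CPM in saline-treated infarct zones and at 17.4, 24.8 and 17.4 in the remote zones. With rhAgrin it stood at 11, 7.87, 3.88 and 3.24 CPM against 17.4, 16.0, 13.5 and 11.3. It was lower in all 7 infarct zones, with log2 fold changes of -1.75 ± 0.31 (edgeR adjusted p = 1.86e-04) and -1.29 ± 0.27 (adjusted p = 6.19e-04). CCL26 (eotaxin-3) stood at 0.0930, 0.174 and 0 CPM against 0.396, 10.1 and 0.223. The remote zone of animal 573 held most of these counts, and without it the log2 fold change of -4.72 became -2.63 with an adjusted p of 0.0952. In rhAgrin-treated pigs CCL26 stood at 0.501, 0.227, 0 and 0.0327 CPM against 2.39, 0.950, 0.344 and 0.0922, and the call at -2.32 ± 0.74 was lost without animal 570. With library size alone in place of TMM factors, CCL14 (-0.59, edgeR adjusted p = 0.0549) and CCL26 (-1.64, adjusted p = 0.0523) were not called in rhAgrin-treated pigs.

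The CXC ligands split. CXCL14, a chemokine made by epithelium and stroma, stood at 81.9, 87.9 and 33.9 CPM in saline-treated infarct zones and at 0.623, 0.467 and 0.178 in the remote zones. In rhAgrin-treated pigs it stood at 102, 65.5, 36.2 and 34.9 CPM against 0.479, 0.350, 0.286 and 0.922. The gap between the zones spanned a fold change of 7.31 ± 0.45 (edgeR adjusted p = 1.86e-08) and 6.74 ± 0.38 (adjusted p = 3.80e-09) on the log2 scale, in saline-treated pigs above that of every other gene of the set with more than 3 remote counts. In rhAgrin-treated pigs CCL3L1, with 4 remote counts, was above it at 6.96. CXCL8, the main neutrophil attractant, stood at 5.02, 2.08 and 18.2 CPM against 0.283, 0.934 and 0.758 in saline-treated pigs. In rhAgrin-treated pigs CXCL8 stood at 2.66, 4.81, 53.4 and 2.95 CPM against 1.06, 0.350, 0.229 and 0.0461. Its fold changes of 3.48 ± 1.00 and 4.32 ± 0.94 carried larger errors than those of the CC ligands named as higher, and without animal 575 the call in saline-treated pigs was lost (2.56, adjusted p = 0.0983). CXCL2 stood at 26.9, 11.3 and 33.7 CPM against 7.87, 17 and 6.07 in saline-treated pigs, where the zones overlapped and it was not called (1.25 ± 0.56). Without animal 573, whose remote zone was the highest, the fold change of CXCL2 was 2.12 and it was called. In rhAgrin-treated pigs CXCL2 was called, at 1.99 ± 0.48, with 25.6, 10.2, 40.1 and 11.2 CPM against 9.57, 2.75, 6.30 and 2.86.

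CXCL10 and CXCL9, the ligands of CXCR3, were lower in the infarct zone. CXCL10 stood at 3.97, 2.13 and 4.52 CPM against 11.2, 15.5 and 11.5 in saline-treated pigs, by -1.85 ± 0.44 on the log2 scale. In rhAgrin-treated pigs CXCL10 stood at 6.55, 2.42, 3.43 and 5.17 CPM against 5.10, 10.7, 16.4 and 12.1, lower in 3 of 4 animals, by -1.32 ± 0.39. CXCL9 stood at 2.88, 0.651 and 3.23 CPM against 5.21, 2.49 and 8.52, and at 6.28, 1.48, 1.79 and 2.52 CPM against 7.87, 4.30, 8.02 and 3.32. It was lower in all 7 animals although the groups overlapped, and its fold changes of -1.30 ± 0.42 and -1.06 ± 0.35 lie close to the threshold. The call of CXCL9 was lost without animal 573 (-1.13, adjusted p = 0.0538) or 575 (-1.23, adjusted p = 0.0791) in saline-treated pigs and without 572 (-0.92, adjusted p = 0.0578) or 576 (-0.70, adjusted p = 0.104) in rhAgrin-treated pigs. That of CXCL10 in rhAgrin-treated pigs was lost without animal 576 (-1.0, adjusted p = 0.0555) or with library size alone (-0.62, adjusted p = 0.172). CXCL11, the gene next to CXCL10, had 11 counts at most in a day 3 library and was not called. With library size alone in place of TMM, which moved the median of all genes to 0.69 and 0.76, CXCL9 had -0.64 and -0.36 and was called in neither treatment, and 21 genes of the set were called higher in each treatment and 3 and 0 lower. CXCL12, the ligand of CXCR4 and ACKR3, stood at 67.1, 43.5 and 37.1 CPM against 73.0, 82.9 and 163 in saline-treated pigs (-1.06 ± 0.32). The call was lost without animal 575 (-0.52), with library size alone (-0.40) and with only the libraries compared (-1.08, edgeR adjusted p = 0.0868). In rhAgrin-treated pigs CXCL12 was not called, at -0.69 ± 0.27.

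**Figure D1:**
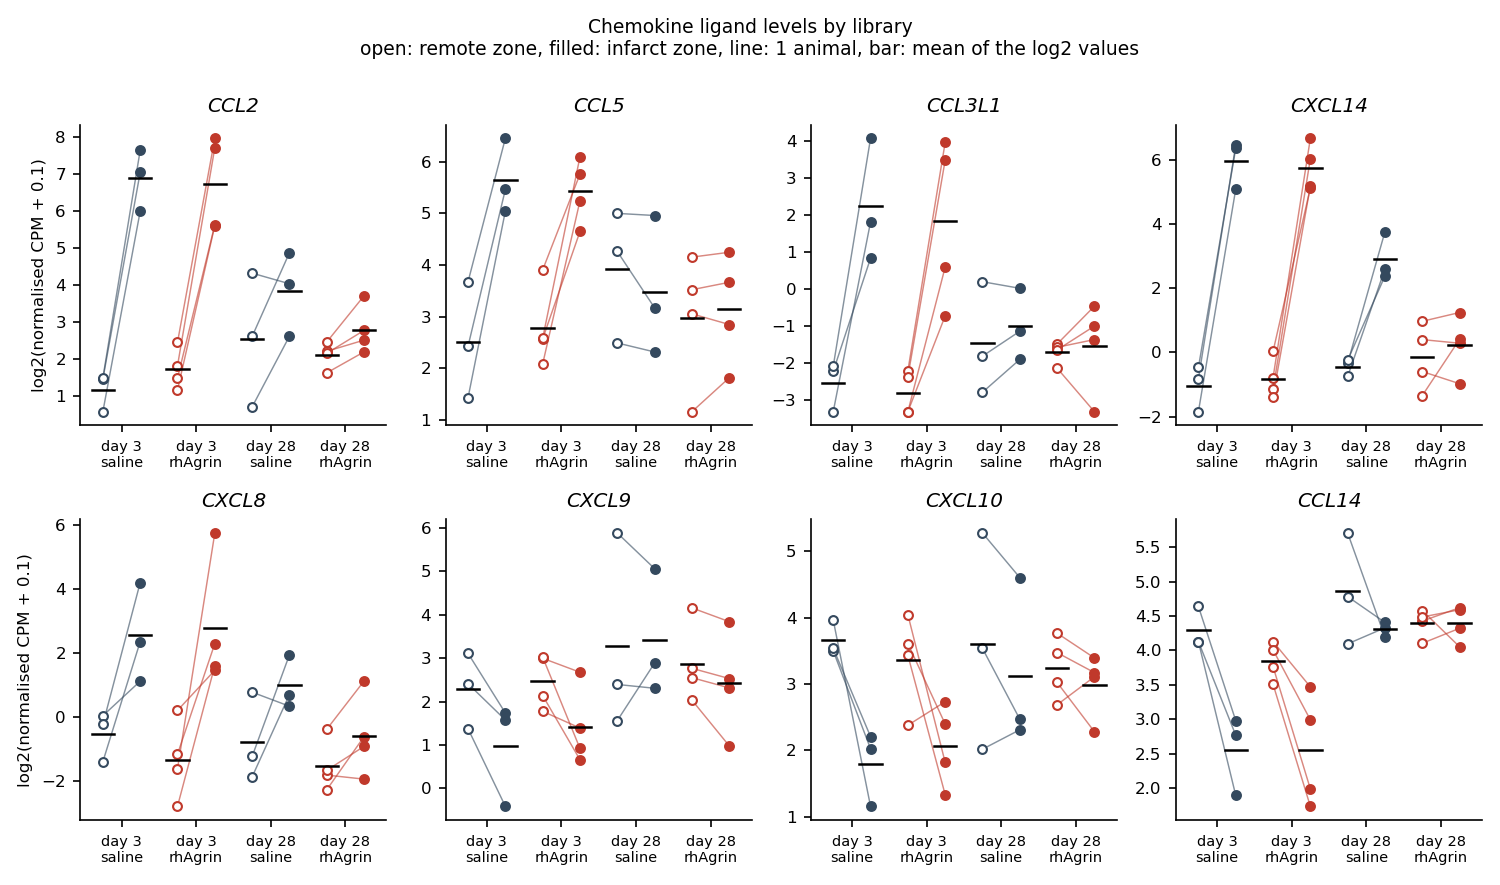
Levels of 8 chemokine ligands in every library, as log2 of normalised CPM plus 0.1, with open points for remote and filled points for infarct zones, lines joining the zones of 1 animal and bars for the mean of the log2 values. On day 3 CCL2, CCL5, CCL3L1, CXCL14 and CXCL8 were higher and CCL14 lower in the infarct zone of all 7 animals, and CXCL10 lower in 6. On day 28 CXCL14 was higher in the infarct zone of all 3 saline-treated pigs. CCL2 and CXCL8 were higher there in animals 523 and 536 and lower in animal 547, and CXCL8 was not called (1.75).

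Receptors that signal were called in 1 direction only. Of 14 tested, 10 were called higher in saline-treated pigs and 9 in rhAgrin-treated pigs, and 0 lower, where 18.2% and 19.3% of all genes were called higher and 16.5% and 15.5% lower. Their median log2 fold changes were 2.76 and 2.58. CCR1, a receptor of monocytes and neutrophils, stood at 105, 59.5 and 117 CPM against 1.87, 2.02 and 2.85 in saline-treated pigs. With rhAgrin it stood at 73.9, 63.3, 119 and 154 CPM against 0.904, 1.45, 2.06 and 1.01. The groups lie far apart, and the fold changes of CCR1 were 5.37 ± 0.33 (edgeR adjusted p = 1.84e-08) and 6.20 ± 0.30 (adjusted p = 1.16e-09).

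CCR2 stood at 58.1, 21.4 and 43.1 CPM in saline-treated infarct zones against 4.81, 2.80 and 5.08 in the remote zones, and with rhAgrin at 31.0, 33.6, 31.4 and 37.7 CPM against 2.87, 5.25, 3.26 and 1.52. It rose by 3.22 ± 0.32 and 3.45 ± 0.28. CXCR4 stood at 101, 48.2 and 44.2 CPM against 9.11, 5.21 and 12.4, and at 59.2, 67.6, 37.7 and 27.2 CPM against 6.17, 11.6, 8.19 and 5.44. Its rise was 2.81 ± 0.33 and 2.58 ± 0.28, opposite in sign to the difference of its ligand CXCL12.

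CX3CR1, the fractalkine receptor of monocytes and resident macrophages, stood at 28.6, 5.99 and 25 CPM against 1.92, 0.622 and 7.40. In rhAgrin-treated pigs CX3CR1 stood at 8.78, 6.97, 13.8 and 13.2 CPM against 0.532, 1.05, 2.81 and 2.63. Each infarct zone was above the remote zone labelled with the same animal, by 2.81 ± 0.37 and 2.71 ± 0.32. XCR1, a receptor of cross-presenting dendritic cells whose reads may come from CCR1, stood at 6.98, 4.91 and 7.23 CPM against 0.566, 0.856 and 0.669, and at 7.59, 6.17, 6.83 and 9.72 CPM against 0.691, 0.5, 3.15 and 1.06. Its fold changes were 3.21 ± 0.47 and 2.72 ± 0.38. XCR1 was among the 17 genes of the set called higher in both treatments on day 3, as was CCR1.

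Of the receptors found mainly on lymphocytes and dendritic cells, CCR6, CCR7 and CXCR3 were called higher in both treatments, from a lower level. CCR7 stood at 1.98, 1.82 and 3.45 CPM against 0.340, 0.311 and 0.446, and at 2.31, 2.91, 3.62 and 2.19 CPM against 0.479, 0.550, 0.859 and 0.783, by 2.7 ± 0.39 and 2.03 ± 0.30. CCR6, a receptor of B cells and T helper 17 cells, stood at 2.17, 1.74 and 0.808 CPM against 0.0566, 0.0778 and 0.0892. In rhAgrin-treated pigs CCR6 stood at 3.62, 3.37, 1.01 and 2.91 CPM against 0.160, 0.200, 0 and 0, and it rose by 4.18 ± 0.63 and 4.93 ± 0.50. CXCR3 stood at 2.05, 0.738 and 1.54 CPM against 0.283, 0.389 and 0.401, and at 1.16, 0.984, 1.34 and 3.04 CPM against 0.266, 0.100, 0.286 and 0.415. CXCR3 rose by 1.98 ± 0.41 and 2.58 ± 0.36 while its ligands CXCL9 and CXCL10 were lower. Of 10 markers of T and NK cells 5 were called higher in saline-treated and 2 in rhAgrin-treated pigs, with summed levels of 92.9 to 127.2 CPM in day 3 infarct zones and 15.6 to 49.5 in the remote zones, and their part was not tested. CXCR6 was called in saline-treated pigs (1.01 ± 0.33) and not in rhAgrin-treated pigs (0.82 ± 0.29), and without animal 575 its difference in saline-treated pigs was 0.76 and not called. CCR4, CCR9 and CXCR5, all with means under 1 CPM in every group, and CCR10, at 1.37 to 1.92 CPM in every group, were not called in any comparison. CCR8, a receptor of regulatory T cells, had 20 counts against 2 in saline-treated pigs (ratio 6.42, 95% interval 1.56 to 56.6, counting error only). Animal 571 held 14 of these 20. In rhAgrin-treated pigs CCR8 had 19 counts against 12. XCL1, the ligand of XCR1, stood under 1 CPM in every library and was not called in any comparison.

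The atypical receptors were called in neither treatment on day 3. ACKR2, a scavenger of inflammatory CC chemokines, stood at 15, 24.3 and 12.2 CPM against 31.6, 42.2 and 26.6 in saline-treated pigs (-0.99 ± 0.24) and at 25.1, 23.0, 14.4 and 6.55 CPM against 26.4, 30.8, 19.8 and 8.80 in rhAgrin-treated pigs (-0.34 ± 0.21). It was lower in the infarct zone of all 7 animals. ACKR3, which takes up CXCL12, was lower in all 7 too, by -0.65 ± 0.20 and -0.80 ± 0.17, past the p threshold and short of the fold threshold. ACKR1, the Duffy antigen of red cells and venules, stood at 4.70, 31.7 and 2.45 CPM in the saline-treated remote zones. Without animal 573, the highest of these, its fold change went from 0.30 to 1.00 and it was called. ACKR4 had log2 differences of -0.45 ± 0.70 and 0.11 ± 0.67.

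**Figure D2:**
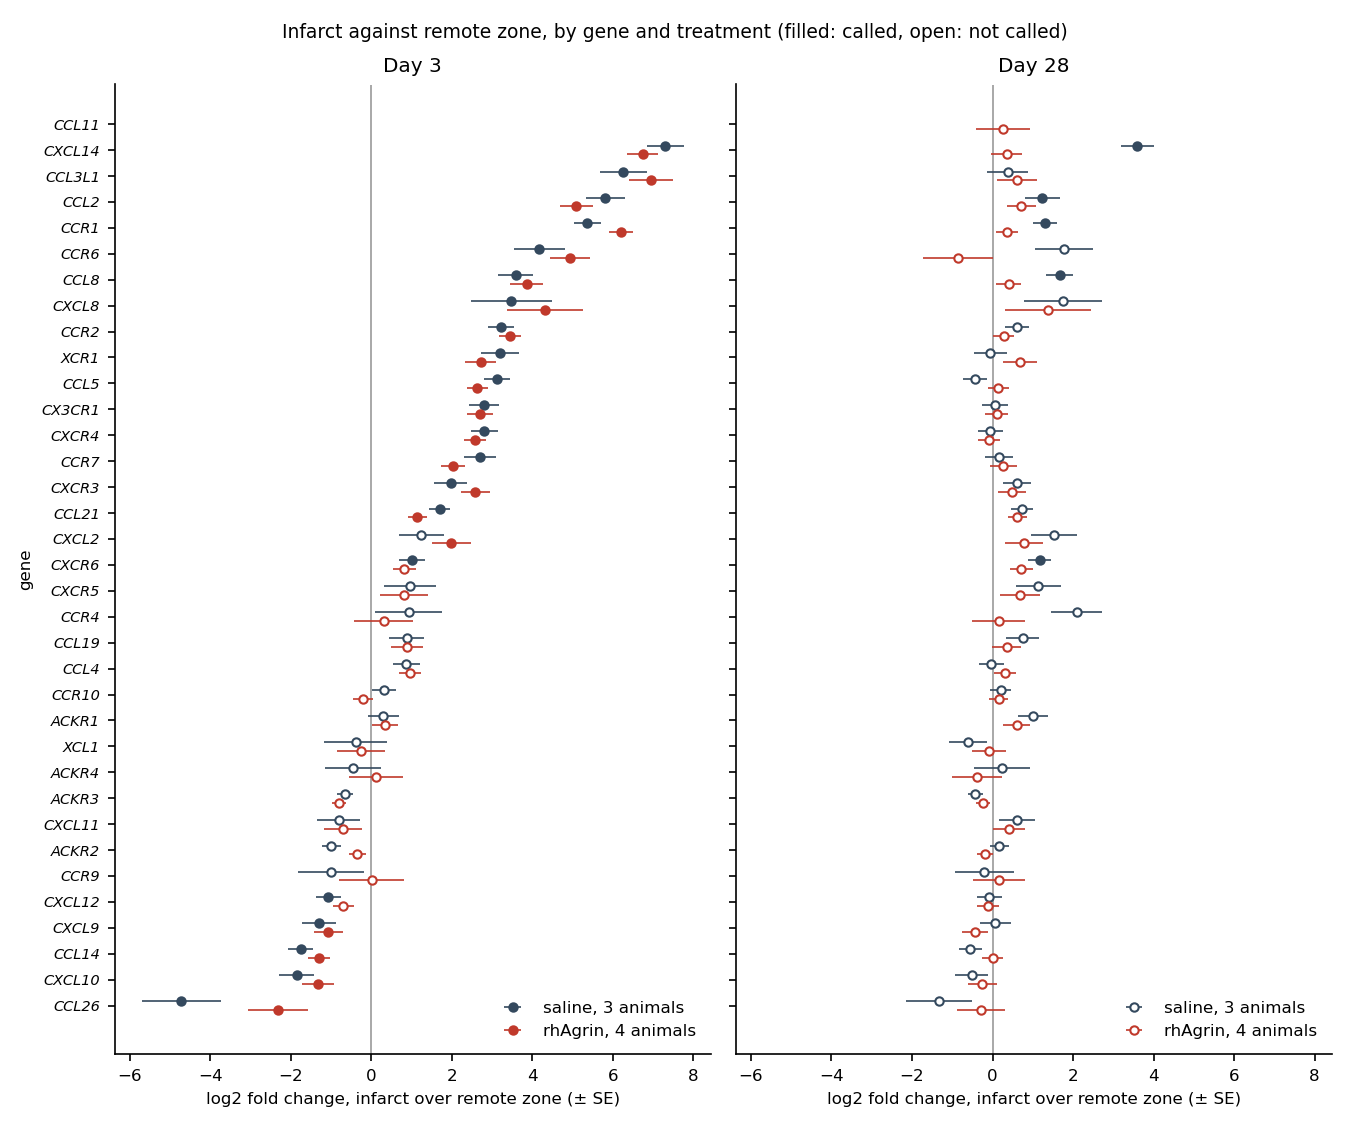
Log2 fold change of the infarct over the remote zone with its standard error for the genes shown, on day 3 and day 28, in saline-treated (3 animals) and rhAgrin-treated pigs (4 animals), with filled points for called genes. CCL22, and CCL11 where the remote zones held 3 counts or fewer, are left out. On day 3 the points of saline-treated pigs run from CCL26 at -4.72 to CXCL14 at 7.31, and those of rhAgrin-treated pigs from CCL26 to CCL3L1. On day 28 only saline-treated pigs have filled points.

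Levels were also set per kilobase of exon, so that genes can be compared. CCL2 led the saline-treated infarct zone of day 3 with a mean level of 176 CPM per kb, before CCL21 (118.5), CCL5 (74.9), CXCR4 (60.6) and CXCL14 (39.5). In the remote zone CCL21 (37.6), CCL14 (30.9) and ACKR3 (26.4) led. In the saline-treated infarct zone of day 28 the order was CCL21 (133), CXCL9 (33.6), CCL14 (30.8) and CXCL12 (25.7), and in the rhAgrin-treated one CCL21 (67.3), CCL14 (33.0), CXCL12 (21.8) and ACKR3 (19.0). The day 28 levels of CCL21 and CXCL9 in saline-treated pigs rest on 1 animal each: CCL21 stood at 113.9 CPM in animal 523 and at 34.0 and 26.8 in the others, and CXCL9 at 33.2 CPM in animal 547 and at 4.84 and 7.29. These levels rest on the merged length of all RefSeq exons of a gene, which can exceed that of any 1 transcript. Reads were counted on Ensembl gene models. Neighbours in the order were not tested against each other.

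In chromosomal order the day 3 changes switched sign on chromosomes 8 and 12. On chromosome 8 CXCL8 was called higher, and CXCL9 and CXCL10, which lie further on, lower. On chromosome 12 CCL14 was called lower between CCL3L1 and CCL5, which were called higher. On chromosome 13 ACKR2 and CCR9 were not called, while CCR1 and CCR2 were.

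**Figure D3:**
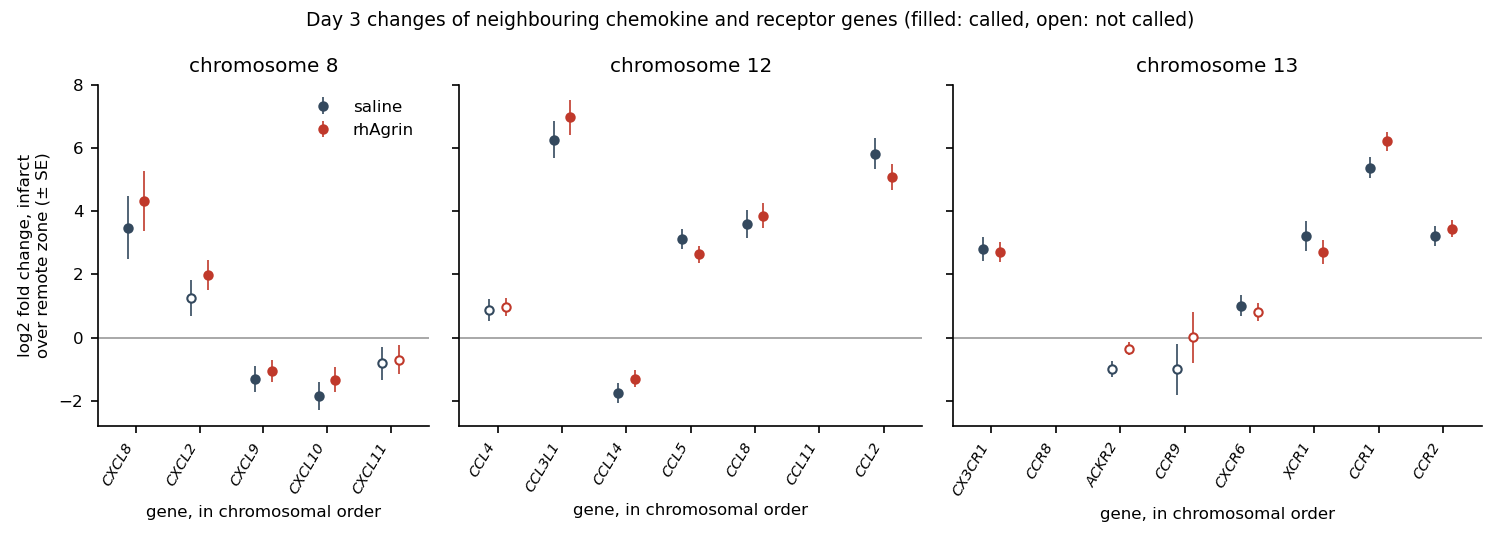
Log2 fold change of the infarct over the remote zone on day 3, with its standard error, for chemokine and receptor genes of chromosomes 8, 12 and 13 in chromosomal order, equally spaced, with filled points for called genes. CXCL8 at 3.48 and 4.32 stands above CXCL9 at -1.30 and -1.06 on chromosome 8, and CCL14 at -1.75 and -1.29 below its neighbours on chromosome 12. CCL11 and CCR8 have a place but no point.

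By day 28 fewer genes of the set differed between the zones of saline-treated pigs and 0 between those of rhAgrin-treated pigs. In saline-treated pigs 7 of 37 were called, all higher, where 7.83% of all genes were called 5.58% higher and 2.25% lower. CCL2, CCL8, CCL11, CXCL14, CCR1 and CXCR6 were among them. All 7 were also called higher on day 3. In rhAgrin-treated pigs edgeR called 0 of 37, where 0% of all genes were called, and DESeq2 also called 0. At an unadjusted p under 0.05 there were 2, CCL21 (0.62 ± 0.23) and CXCR6 (0.72 ± 0.29), and 599 of 15409 over all genes.

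CXCL14 kept a gap on day 28. It stood at 13.5, 5.12 and 5.97 CPM in saline-treated infarct zones and at 0.694, 0.746 and 0.496 in the remote zones. These zones did not overlap, which held for 9 of 37 genes of the set and for 20.2% of all genes. In rhAgrin-treated pigs it stood at 1.23, 2.27, 0.409 and 1.12 CPM against 0.294, 1.86, 0.562 and 1.22, with the zones overlapping. The fold changes of CXCL14 were 3.6 ± 0.41 (edgeR adjusted p = 2.23e-04) and 0.35. CCL11, with 50 counts against 3 in saline-treated pigs (1.16, 0.432 and 0.151 CPM against 0.0730, 0.0439 and 0), had a ratio of 14.2 (95% interval 4.58 to 71.1, counting error only). In rhAgrin-treated pigs CCL11 stood at 0.107, 0.124, 0.0409 and 0.0361 CPM against 0.210, 0.0364, 0 and 0.0437, with no gap.

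CCL8 stood at 4.70, 1.23 and 3.25 CPM against 1.10, 0.351 and 1.44 in saline-treated pigs (1.67 ± 0.33). In rhAgrin-treated pigs CCL8 stood at 0.214, 3.07, 1.10 and 0.939 CPM against 0.336, 2.18, 0.750 and 0.612. CCL2 stood at 29.2, 6.05 and 16.3 CPM against 6.02, 1.54 and 19.9 in saline-treated pigs. It was higher in 2 of 3 animals, lower in animal 547, and its adjusted p of 0.0495 (1.24 ± 0.43) lay at the threshold. The call of CCL2 was lost when any 1 of 11 animals was left out. In rhAgrin-treated pigs CCL2 stood at 5.62, 13, 4.49 and 6.76 CPM against 4.54, 5.42, 3.00 and 4.37.

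CCR1 stood at 10.6, 5.69 and 6.13 CPM against 2.56, 2.33 and 4.15 in saline-treated pigs (1.30 ± 0.30) and at 1.87, 3.04, 3.11 and 3.11 CPM against 2.27, 1.71, 2.20 and 2.53 in rhAgrin-treated pigs. In each saline-treated pig CCR1 was above the animal's own remote zone. CXCR6, which marks tissue-resident T cells, had a fold change of 1.17 ± 0.29 in saline-treated pigs, from 1.65, 0.632 and 2.80 CPM against 0.694, 0.307 and 1.22. Its call was lost without animal 523 (adjusted p = 0.0857) or 547 (adjusted p = 0.0532). CCR4 reached an adjusted p of 0.0302 at 2.09 ± 0.64, but its highest count was 25 and it was not called.

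Several receptors that rose on day 3 had small differences on day 28. CCR2 stood at 8.66, 8.15 and 10.5 CPM against 8.51, 4.74 and 5.01 in saline-treated pigs and at 6.58, 9.43, 6.74 and 4.70 CPM against 5.00, 5.82, 4.83 and 6.64 in rhAgrin-treated pigs. CXCR4 stood at 14.8, 17.2 and 15.9 CPM against 28.4, 12.5 and 12.7, and at 11.5, 9.31, 9.81 and 9.03 CPM against 13.4, 11.8, 9.70 and 7.69. CX3CR1 stood at 9.61, 2.56 and 7.45 CPM against 8.76, 3.29 and 5.73, and at 1.82, 9.28, 9.19 and 8.74 CPM against 2.10, 7.13, 9 and 8.17. The zones of CXCR4 and CX3CR1 overlapped in both treatments, with fold changes of -0.08 to 0.10. Among ligands CCL5 overlapped as well, at 8.91, 4.89 and 31.0 CPM against 19.1, 5.53 and 31.9 and at 3.43, 7.11, 18.9 and 12.6 CPM against 2.14, 8.22, 17.7 and 11.4. CCL3L1, so high in the day 3 infarct zone, stood at 0.351, 0.166 and 0.908 CPM against 0.183, 0.0439 and 1.04 in saline-treated pigs and at 0, 0.621, 0.286 and 0.397 CPM against 0.126, 0.255, 0.234 and 0.218 in rhAgrin-treated pigs.

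CCR6, CCR7 and CXCR3 were not called on day 28. CCR6 stood at 0.351, 0.299 and 0.113 CPM against 0.0365, 0.0878 and 0.0902 in saline-treated pigs (1.78, not called) and at 0.0535, 0, 0.0817 and 0.0361 CPM against 0.0420, 0.0728, 0.141 and 0.0437 in rhAgrin-treated pigs. CCR7 stood at 0.982, 0.566 and 1.44 CPM against 1.72, 0.439 and 0.632, and at 0.321, 0.838, 0.858 and 0.614 CPM against 0.420, 0.837, 0.375 and 0.524. CXCR3 stood at 1.19, 0.432 and 2.42 CPM against 0.840, 0.395 and 1.22, and at 0.214, 0.434, 1.23 and 0.939 CPM against 0.0841, 0.655, 0.843 and 0.393. The zones of CCR7 and CXCR3 overlapped in both treatments. XCR1, uncertain for its overlap with CCR1, stood at 1.75, 1.40 and 2.31 CPM against 1.83, 2.46 and 1.35, and at 1.02, 0.993, 1.27 and 1.19 CPM against 0.336, 0.728, 0.843 and 0.918. In saline-treated pigs the fold change of XCR1 was -0.05 and not called, where that of CCR1 was called (1.30).

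Of the genes that were lower on day 3, none was called on day 28. CCL14 stood at 18.2, 21.1 and 20 CPM against 52.0, 27.4 and 17 in saline-treated pigs and at 24.5, 16.5, 19.9 and 24.0 CPM against 21.4, 23.8, 17.1 and 22.3 in rhAgrin-treated pigs. CCL26 stood at 1.16, 0.0333 and 0.189 CPM against 4.78, 0 and 0.135, and at 1.55, 0.0931, 0.245 and 0.831 CPM against 0.420, 0.509, 0.469 and 1.31. The highest level of CCL26 in this group was in the remote zone of animal 523. ACKR2 stood at 30.2, 22.1 and 24.3 CPM against 43.2, 24.1 and 10.3, and at 28.5, 11.4, 19.3 and 17.7 CPM against 29.4, 17.4, 21.1 and 17, with fold changes of 0.17 and -0.18.

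The day 28 result for saline-treated pigs rests in part on animal 523. Without it 3 genes of the set were called, of which 2, CXCL14 included, were among the 7, and 1, CCL21, was new. Its infarct zone had 9129 CPM of summed cardiomyocyte markers, where the other saline-treated infarct zones had 49754 and 42778 and the rhAgrin-treated ones 57407 to 69911. It also had 50148 CPM of 7 fibroblast markers, where the others had 14182 and 12204 and the rhAgrin-treated ones 6039 to 15398. The Y-linked KDM5D and ZFY had 230 and 560 counts in this library and 0 in those of animals 536 and 547. Of the rhAgrin-treated pigs of day 28, animals 519 and 522 had such counts and animals 544 and 548 had 0. The part of sex was not tested. With the animal left out of the model as a block 3 genes were called, and in a fit of these 6 libraries alone 0. Over all 3 saline-treated pigs 5 of 7 fibroblast, 2 of 4 mast cell and 1 of 6 pericyte and smooth muscle markers were called higher and 2 of 7 cardiomyocyte markers lower, and 0 of these in rhAgrin-treated pigs. Of 8 macrophage markers 2 were called higher in saline-treated pigs and 0 in rhAgrin-treated pigs, with 329.6 to 553.0 CPM against 217.5 to 403.4 and 190.2 to 298.0 against 185.7 to 249.6. Their part in the day 28 result was not tested.

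**Figure D4:**
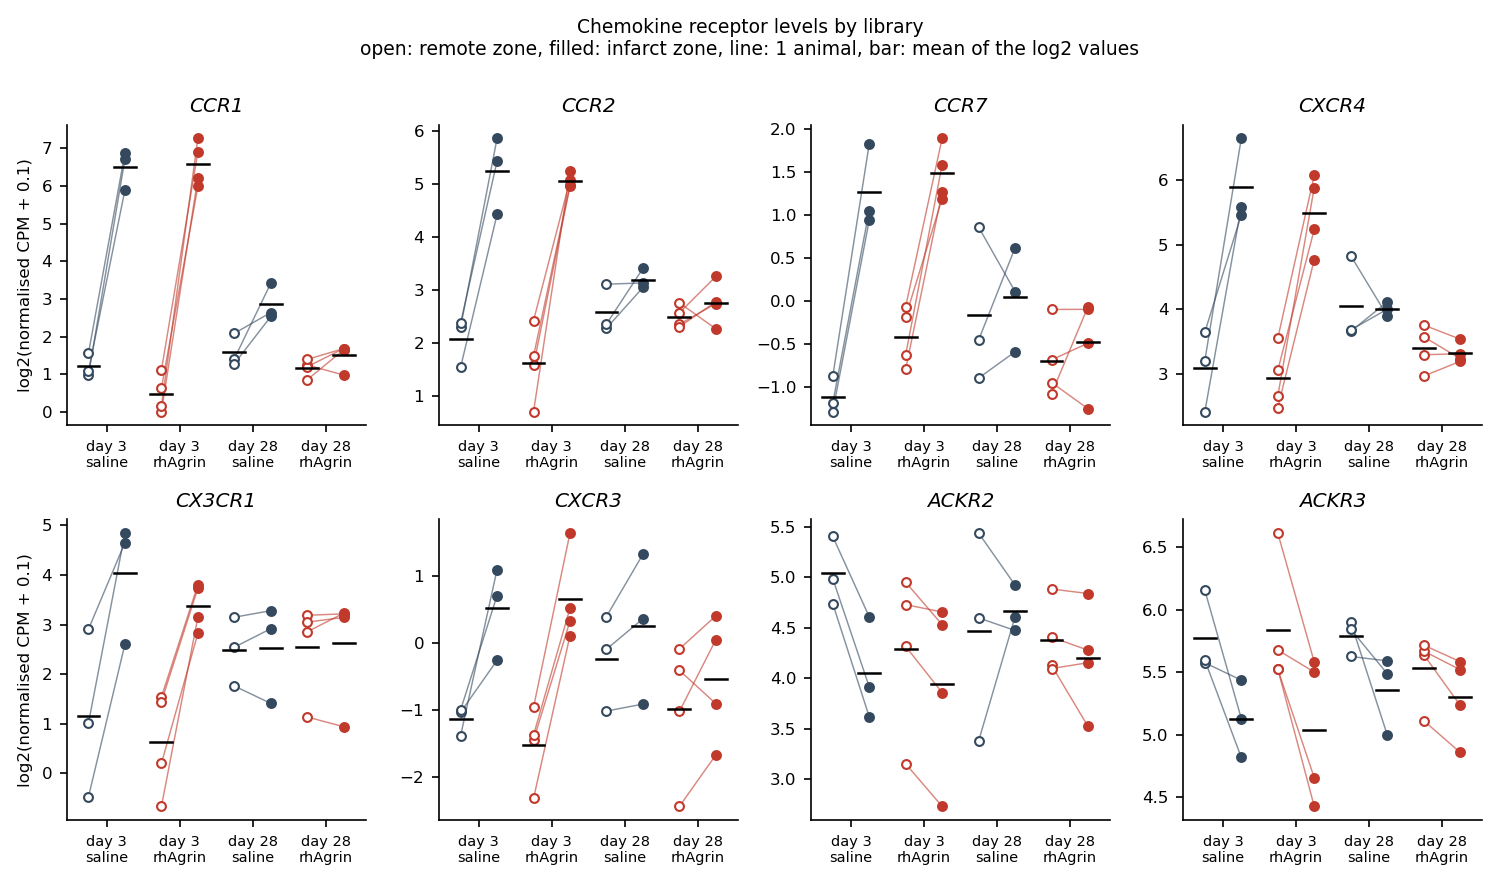
Levels of 8 chemokine receptors in every library, as log2 of normalised CPM plus 0.1, with open points for remote and filled points for infarct zones, lines joining the zones of 1 animal and bars for the mean of the log2 values. On day 3 CCR1, CCR2, CCR7, CXCR4, CX3CR1 and CXCR3 were higher and ACKR2 and ACKR3 lower in the infarct zone of all 7 animals, and on day 28 CCR1 was higher in the infarct zone of all 3 saline-treated pigs.

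The effect of rhAgrin was tested as the difference between treatments in the infarct response. On day 3 edgeR called 0 of 37, with 0 at an unadjusted p under 0.05, and DESeq2 also called 0, where edgeR called 0% of all genes. On day 28 CXCL14 alone of the 37 was called, against 0.487% of all genes. Its response was lower by 3.24 ± 0.58 on the log2 scale in rhAgrin-treated pigs (edgeR adjusted p = 0.0320), and 6 genes of the set had an unadjusted p under 0.05, where 3332 of 15409 genes did. The adjusted p of this difference was 0.0518 to 0.205 when animal 519, 522, 523, 536, 544, 548 or 575 was left out, with fold changes of -2.80 to -3.64, so the call depends on each of these animals. CCL11 (adjusted p = 0.0922) came next and was not called.

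In the infarct zone alone, rhAgrin-treated and saline-treated pigs differed on day 28 for 2 of 34 genes tested, both lower, where 4.30% of all 14968 genes were called 0.261% higher and 4.04% lower. CXCL14 was lower by 2.65 ± 0.56 (adjusted p = 0.0210) and CCR1 by 1.39 ± 0.35 (adjusted p = 0.0363). For both, each of the 4 rhAgrin-treated libraries lay under each of the 3 saline-treated ones. The groups did not overlap for 9 of the 34 genes and for 24.4% of all genes. Without animal 523 neither was called, at -2.09 (adjusted p = 0.102) and -1.06 (adjusted p = 0.185), and 0 were called without animal 519 or 544. CCR1 was also lost without animal 522, 548 or 576, with adjusted p between 0.05 and 0.0668 and fold changes of -1.39 to -1.45. With animal 536 left out 5 were called and with animal 547 left out 4. In the same zone 3 of 7 fibroblast, 3 of 8 macrophage, 1 of 5 dendritic cell and 1 of 4 mast cell markers were called lower and 0 of 7 cardiomyocyte markers higher, and their part was not tested. On day 3 edgeR and DESeq2 called 0 of 34 in the infarct zone, with 0 at an unadjusted p under 0.05, where 0% of all genes were called.

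The infarct response differed between the days. In saline-treated pigs 15 of 37 genes of the set were called, 3 with a higher and 12 with a lower response on day 28, where 24.5% of all genes were called, 12.8% higher and 11.7% lower. In rhAgrin-treated pigs 16 were called, 1 higher and 15 lower, against 32.6% of all genes, 15% higher and 17.6% lower. The response was lower in both treatments for 12 genes, among them CCL2, CCL3L1, CCL5, CCL8, CXCL14, CCR1, CCR2, CCR7, CX3CR1, CXCR4 and XCR1, and higher in both for CCL14. With library size alone, which moved the median of all genes to -0.31 and -0.70, 0 were called higher and 15 and 18 lower, and the calls of CCL14 (0.88 and 0.66), ACKR2 (0.85) and CCL26 (3.17, adjusted p = 0.0561) were lost. Between the days 7 and 8 of 8 macrophage markers and 3 and 1 of 4 neutrophil markers were called with a lower response and 7 and 7 of 7 cardiomyocyte markers with a higher one, for saline-treated and rhAgrin-treated pigs. Of 7 fibroblast markers 2 had a higher response in saline-treated and 5 a lower one in rhAgrin-treated pigs. Their part was not tested. CCL3L1 had the largest of these differences in saline-treated pigs (-5.88 ± 0.84), followed by CCL2 (-4.57 ± 0.64) and CCR1 (-4.07 ± 0.44). In rhAgrin-treated pigs CXCL14 (-6.38 ± 0.57), CCL3L1 (-6.36 ± 0.83) and CCR1 (-5.84 ± 0.41) led. CCR6, CXCR3 and CCL11 had a lower response in rhAgrin-treated pigs. In saline-treated pigs they were not called (edgeR adjusted p = 0.106 for CCR6, 0.0553 for CXCR3 and 0.0683 for CCL11). Without animal 573 CXCR3 was called in saline-treated pigs too (-1.73, edgeR adjusted p = 0.026). Whether the treatments differ in these genes was not tested. ACKR2 (1.17 ± 0.34) and CCL26 (3.39 ± 1.30) had a higher response in saline-treated pigs. Without animal 573 the response of CCL26 was 1.31 and not called, and CCL21 was gained (-1.15, edgeR adjusted p = 0.0461). In that fit 15 genes were called, 1 higher and 14 lower. The calls of CCL14 (saline), CCL26, ACKR2 and CCL8 were also lost when 1 of several other animals was left out: ACKR2 without 547 (0.67), CCL8 without 547 (-1.62, adjusted p = 0.0536) or 575 (-1.24), CCL14 without 536, 547, 573 or 575 (0.80 to 1.24).

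Within the infarct zone 15 of 34 genes were called between the days in each treatment, against 26.0% of all genes in saline-treated and 33.9% in rhAgrin-treated pigs. In saline-treated pigs 4 were higher on day 28 (15.6% of all genes) and 11 lower (10.4%), and in rhAgrin-treated pigs 2 were higher (17.7%) and 13 lower (16.3%). In this zone 7 of 8 macrophage markers and 3 of 3 neutrophil markers were called lower on day 28 and 7 of 7 cardiomyocyte markers higher in each treatment, and their part was not tested. The 11 of saline-treated pigs were all among the 13, and CCL2, CCL3L1, CCL5, CCR1, CCR2, CCR6, CCR7, CXCL14, CXCR4 and XCR1 belonged to them. The 13 also held CXCL8 and CCL11. CXCL12 stood at 267, 114 and 133 CPM in day 28 saline-treated infarct zones and at 179, 128, 132 and 142 in rhAgrin-treated ones, above all day 3 infarct values, and was higher by 1.86 ± 0.34 and 1.40 ± 0.29. Its remote means were also higher on day 28, without a call, at 174.5 against 106.2 CPM (saline) and 157.9 against 102.6 CPM (rhAgrin). The day difference in the infarct response of CXCL12 was called in neither treatment (0.97 in saline-treated pigs). Infarct zones did not overlap between the days for 16 and 15 of the 34 genes and for 48% and 60.3% of all genes. With library size alone the call of CXCL12 in rhAgrin-treated pigs was lost, at 0.78. CCL14 was higher by 1.78 ± 0.40 and 1.80 ± 0.35, from 3.24 to 11 CPM on day 3 to 16.5 to 24.5 CPM on day 28 over both treatments. In saline-treated pigs CCL5, CCL3L1 and CCR7 lost their call when 1 of several animals was left out, with fold changes of -1.30 to -1.94, -2.34 to -3.73 and -0.88 to -0.94.

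CXCL9 and CXCL10 were higher on day 28 than on day 3 in saline-treated infarct zones, by 2.79 ± 0.90 and 1.76 ± 0.59. Animal 547 carried most of this. CXCL9 stood at 4.84, 7.29 and 33.2 CPM and CXCL10 at 5.44, 4.86 and 24.2, animal 547 last. Its remote zone was high as well, at 58.7 and 38.6 CPM, where the other saline-treated remote zones of day 28 held 2.85 to 5.15 and 3.95 to 11.5. Without animal 547 the differences were 1.48 (adjusted p = 0.160) and 0.60 (adjusted p = 0.288) and neither was called. With library size alone CXCL10 was not called, at 1.33. Without animal 571 (1.81 for CXCL10, 2.97 for CXCL9) or 573 (1.5 and 2.36) neither was called either. CXCL11, their neighbour, also had its highest values in animal 547, at 1.40 and 1.04 CPM.

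In the remote zone edgeR called 0 of 28 genes of the set in each of 4 comparisons, and DESeq2 also called 0, where edgeR called 0% of all 14324 genes. At an unadjusted p under 0.05 there was 1 gene between treatments on day 3 (CCR1, -0.73 ± 0.32) and there were 3 on day 28 (XCR1 -1.41, CCL4 -1.04 and CCL21 -1.55), and over all 14324 genes 554 and 656. Between the days there were 9 in saline-treated and 5 in rhAgrin-treated pigs, all with higher values on day 28, and 1465 and 1294 over all 14324 genes. CCL8 in rhAgrin-treated remote zones was among them, at 0.336, 2.18, 0.750 and 0.612 CPM on day 28 against 0.160, 0.100, 0.286 and 0.184 on day 3 (2.39 ± 0.75, adjusted p = 0.474). It was the 1 gene of 28 that did not overlap there, against 7.41% of all genes.

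Genes that act downstream of a chemokine receptor were listed too, both those that carry the signal and those that turn it off. Of 25 tested, 19 were called higher, 1 lower and 5 were not called in each treatment on day 3, where 18.2% and 19.3% of all genes were called higher and 16.5% and 15.5% lower. The medians were 1.81 and 2.26 against 0.04 and 0.06 over all genes. VAV1, an exchange factor for Rac in blood cells (4.61 and 5.10), and DOCK2, which drives leukocyte migration (3.62 and 3.80), were among them. GRK5, a kinase that turns receptors off and is abundant in heart muscle, was called lower (-1.76 and -1.44). On day 28, 3 were called higher in saline-treated pigs, among them PLCB2 (1.14) and RGS1 (1.28), where 5.58% of all genes were, and 0 in rhAgrin-treated pigs, where 0% were. The same shares of all genes apply to the inducers, the enzymes and matrix genes and the related genes described next.

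Of 13 tested inducers and regulators of chemokine genes, 4 were called higher in each treatment on day 3 and 0 lower, with medians of 0.44 and 0.69. The cytokines OSM (4.10 and 4.67), IL6 (3.94 and 3.22) and IL1A (3.00 and 2.63) were called in both. The interferon-responsive factor IRF1 (0.42 and 0.47), which acts on the promoters of CXCL9 and CXCL10, was not called. On day 28 OSM was called in saline-treated pigs (1.65).

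Of 13 tested enzymes and matrix genes that cut or hold chemokines, 7 were called higher in saline-treated and 6 in rhAgrin-treated pigs on day 3, and DPP4 lower in both. MMP9, a neutrophil and macrophage protease (8.72 and 8.04), and the heparan sulphate carrier SDC1 (4.74 and 4.44) led. DPP4, which trims and inactivates CXCL10 and CXCL12, was lower by 2.81 and 2.53. On day 28 in saline-treated pigs 6 were called higher, among them MMP9 (3.58), VCAN (2.27) and SDC1 (2.19), and DPP4 lower, while in rhAgrin-treated pigs 0 were called.

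Of 8 related genes outside the name rule, 6 were called higher in saline-treated and 5 in rhAgrin-treated pigs on day 3. The porcine neutrophil attractant AMCF-II, at 0 in every saline-treated remote zone of day 3, the platelet chemokine PPBP (4.48 and 2.76), the complement receptor C5AR1 (3.70 and 4.21) and CCRL2 (3.03 and 2.46) were called in both. On day 28 C5AR1 (1.01) and RARRES2, the chemerin gene (1.05), were called in saline-treated pigs and 0 in rhAgrin-treated pigs. Between treatments in the day 28 infarct zone, 2 of these 8 genes, 3 of the 25 signalling genes, 1 of the 13 inducers and 5 of 12 enzyme and matrix genes were called lower in rhAgrin-treated pigs and 0, 0, 0 and 1 higher, where 4.04% of all genes were called lower and 0.261% higher. The saline-treated group of this comparison holds animal 523.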

How the data were processed

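RNA of 28 samples (infarct and remote zone of 14 pigs) was sequenced from polyA libraries. Raw read counts per gene were deposited by the authors in 4 tables: reads were trimmed with cutadapt, aligned to Sscrofa11 (Ensembl release 103) with STAR (v2.7.3a), deduplicated by molecular identifier with Picard (v2.22.4) and counted with HTSeq for uniquely mapped reads only, which undercounts near copies. The 4 normalised tables beside them were not used, and 0 columns belonged to no listed sample.

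Libraries held 15.38 to 34.77 M counts. Counts were joined by gene identifier. Genes with low counts were removed with filterByExpr, leaving 15409 genes over all libraries, 14968 in the infarct and 14324 in the remote fit, and TMM factors were 0.761 to 1.457. The robust quasi-likelihood test of edgeR (v4.0.16, R v4.3.3) was fitted over 28 libraries with a term for each animal and an infarct term for each of the 4 pairs of treatment and day. Treatments and days within a zone were fitted over 14 libraries without a block. Zones were paired by the animal number in the labels. Residuals of the zones of 1 animal correlated at 0.049 to 0.694 (median 0.384), highest with the own zone in 12 of 14 animals. Standard errors were derived from the F statistic. The fits of a comparison of zones and a comparison of treatments were also run on simulated counts. These counts held no animal effect and no difference in composition between zones, so they cannot test the pairing or the normalisation. Comparisons with the same control animals are not independent.

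Genes were named if called in 1 of 16 comparisons (25 genes) or at a mean of 1 CPM or more in a group (31 genes). Values per library were given for the 8 genes with the smallest adjusted p between zones, for genes called between treatments and for genes whose zone difference differed between treatments or days. Members, gene lists and marker lists were chosen with earlier results of these data known. Alternatives were DESeq2 (v1.42.0), library size alone, no filter on low counts, no replicate block, only the libraries compared, and each animal left out. Promoter sequences, positions and merged exon lengths are from RefSeq (Sscrofa11.1). In 1 animal the column of the infarct zone carries an extra letter that no label explains and was read as that animal. Results for some genes and for 1 promoter are not reported here.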

Additional observations from a re-analysis of the deposited data

Results flagged for a closer look

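For values that are normally spread, chance flags about 1 in 20 groups of 4. In 13 of 148 groups of 4 rhAgrin-treated libraries the highest or lowest library stood far from the other 3. On day 3 these were ACKR3 (97.9 CPM, animal 570), CXCL12 (193.2 CPM, animal 576), CCL11 (0, animal 576), CCL5 (14.9 CPM, animal 577) and CCR10 (2.26 CPM, animal 577) in the remote zone and CXCL8 (53.4 CPM, animal 576) in the infarct zone. On day 28 they were ACKR3 (34.5 CPM, animal 522), CCL22 (0.0437 CPM, animal 548) and CCL26 (1.31 CPM, animal 548) in the remote zone and CCR1 (1.87 CPM, animal 519), CX3CR1 (1.82 CPM, animal 519), XCL1 (0.214 CPM, animal 519) and CCL22 (0.0310 CPM, animal 522) in the infarct zone. Genes with few counts are not normally spread, and whether 13 of 148 exceeds chance was not tested. Both CCL22 flags were 1 count against 0 in the other libraries, and that of CCL11 was 0 counts against 1 in each.

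Between treatments, the day 28 infarct response differed by the difference test for CXCL14, by -3.24 on the log2 scale. Between days, the infarct response differed in saline-treated pigs for ACKR2 (1.17), CCL14 (1.2) and CCL26 (3.39), higher on day 28. It was lower on day 28 for CCL2 (-4.57), CCL3L1 (-5.88), CCL5 (-3.57), CCL8 (-1.92) and CXCL14 (-3.71) among the ligands. Among the receptors it was lower for CCR1 (-4.07), CCR2 (-2.61), CCR7 (-2.53), CX3CR1 (-2.74), CXCR4 (-2.87) and XCR1 (-3.26).

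In rhAgrin-treated pigs the response of CCL14 was higher on day 28 (1.29). That of the ligands CCL2 (-4.37), CCL3L1 (-6.36), CCL5 (-2.51), CCL8 (-3.45) and CXCL14 (-6.38) was lower, and so was that of CCL11, whose fitted value of -4.72 rests on 3 counts in the day 3 remote zones and is no bound. Of the receptors CCR1 (-5.84), CCR2 (-3.17), CCR6 (-5.78), CCR7 (-1.76), CX3CR1 (-2.61), CXCR3 (-2.10), CXCR4 (-2.66) and XCR1 (-2.04) had a lower response on day 28.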

How the results depend on the processing

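Of 2137 values of 116 called fold changes under the alternatives, 2014 kept their call, 123 lost it and 0 changed direction; DESeq2 kept all 116. In saline-treated pigs on day 28, 7 genes of the set became 3 without the replicate block and 0 with only the libraries compared, and 3 to 8 with 1 animal left out. The day 28 difference between treatments in the response, 1 gene, became 3 with library size alone, 0 without the replicate block and 0 with only the libraries compared, and 0 to 1 with 1 animal left out. The day 28 difference in the infarct zone, 2 genes, became 0 to 5 with 1 animal left out: 0 without 519, 523 or 544, 1 without 522, 548 or 576, 5 without 536 and 4 without 547. The cause was not tested, but the fits of only the libraries compared hold fewer samples. Leaving out 1 animal gave 19 to 25 and 20 to 24 genes on day 3 (saline, rhAgrin), 12 to 16 and 16 to 18 for the difference between days in the response, 12 to 16 and 15 for days within the infarct zone, and 0 in the comparisons that called 0. Without the replicate block CXCL9 (-1.26 and -0.96) and CXCR6 (1.01, saline) on day 3, CCL21 (1.15) and CCL26 (-2.31) in rhAgrin-treated pigs on day 3, and CX3CR1 (-2.40, saline) and CXCR3 (-2.07, rhAgrin) between days were not called, and the saline day difference fell from 15 genes to 10. Over all genes, 1207 calls (day 28, saline) became 629 without the block and 4 with only the libraries compared, 75 (response between treatments, day 28) became 409 with DESeq2, 585 with library size alone and 1 without the block, and 643 (infarct zone between treatments, day 28) became 991 with DESeq2 and 1215 with library size alone. With library size alone, 78.0% of day 3 saline calls were higher against 52.5%, 81.6% against 55.4% in rhAgrin-treated pigs and 95.7% against 71.3% on day 28 (saline). Genes under 1 CPM rest on few counts, and where such a gene was not called a difference may lie below what this depth can detect.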
